A study of Mus musculus with 9 samples.

Results

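The genes described here are 40 type I interferon response genes, taken as a named list and all present among the 24571 gene symbols of the deposited table. They were read in 9 RNA sequencing libraries from whole hearts of C57BL/6N mouse embryos at E18.5, shortly before birth. Each heart was wild type, heterozygous or homozygous for the R567W missense allele of Ctcf, which CRISPR/Cas9 editing had placed in the germline, and each genotype had 3 libraries. Ctcf encodes the zinc-finger protein that binds insulators and anchors chromatin loops. Heterozygous and homozygous embryos carried the allele in all tissues, wild-type embryos lacked it, and the labels name no other allele or agent. The labels do not say from how many litters the embryos came, so p-values measure the spread between these samples. For description the list was divided into 12 regulators, 9 sensors of foreign or misplaced nucleic acid, 14 effectors and 5 other genes. The oligoadenylate synthetase Oas3 lay between 0.24 and 0.60 TPM (a transcript level scaled to gene length and to a common library total) in all 9 libraries and was not tested, which left 39 members among 13682 genes whose mean over all libraries reached 1 TPM. In 34 of the 39 the mean reached 1 TPM in every genotype. Ifit1, Mx2 and Rsad2 were under it in homozygous hearts, Mx1 in heterozygous and homozygous hearts, and Zbp1 in wild-type and heterozygous hearts.

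Type I interferons are secreted by cells that detect viral or misplaced nucleic acid. They bind the receptor made of IFNAR1 and IFNAR2, whose kinases JAK1 and TYK2 switch on a complex that holds STAT2 and IRF9, enters the nucleus and binds the interferon-stimulated response element (ISRE) in the promoters of interferon-stimulated genes. Many sensors and regulators of the pathway are themselves such genes, so the response feeds back on its own components. Uninfected tissues keep a low basal expression of the same genes.

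The element was looked for in the promoters of the members, since it is the site through which they are known to respond. RefSeq (GRCm38.p6) listed a promoter of 300 bases, from 250 before to 50 after the start site, for 30 of the 40 members. The letters searched were GAAANNGAAA on either strand, with overlapping matches merged. They occurred in 16 of the 30 members (53.3%) and in 3.99% of all 27025 genes with a listed promoter. By class, a match was present in 3 of 9 regulators, 5 of 6 sensors, 8 of 12 effectors and 0 of 3 other genes. The gamma-activated sequence, searched as TTCNNNGAA on either strand, occurred in 8 of the 30 members (26.7%) and in 9.55% of all genes, and its matches ran into those of the ISRE in Bst2 and Ifitm3. A match is a run of letters, not a measured binding site.

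**Figure D1:**
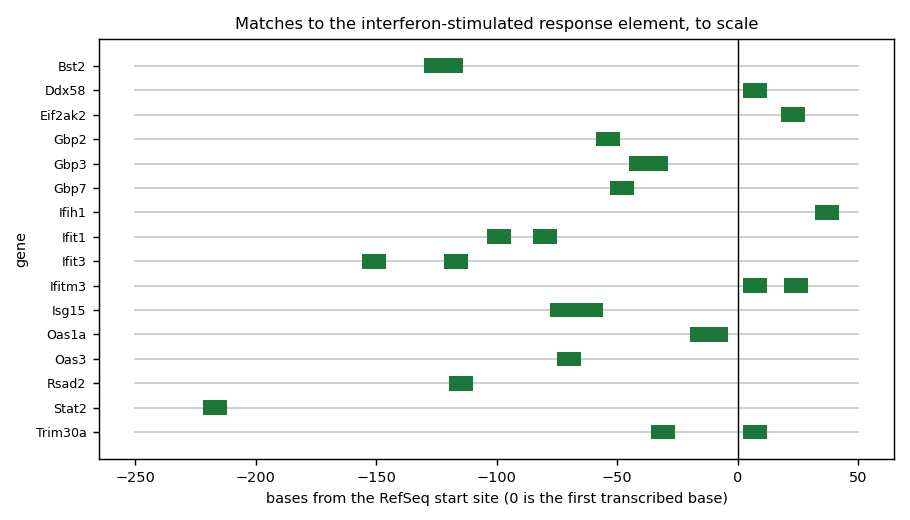
Positions of the ISRE letters in the promoters of the 16 members that held them, in bases from the RefSeq start site (horizontal axis). Each row is a gene, each green bar is a match drawn to scale, grey lines span the searched window, and matches in either listed promoter of Trim30a and Gbp3 are drawn in 1 row. Most matches lay before the start site, and those of Ddx58, Eif2ak2, Ifih1 and Ifitm3 and 1 of Trim30a lay after it.

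The promoters of 4 members are printed because these had the lowest p in homozygous against wild-type hearts among the members named by the rule given under the processing that also held the element. Each is written 5′ to 3′ on the strand of its gene, with the matched letters in capitals, and the start site is the base after the first 250. Gbp3 encodes a guanylate-binding GTPase, Trim30a a tripartite-motif protein that restrains inflammatory signalling, Isg15 a ubiquitin-like protein conjugated to other proteins, and Oas1a an oligoadenylate synthetase. They stand at chr3:142559794-142560093 on the plus strand (Gbp3), and on the minus strand at chr7:104465144-104465443 (Trim30a), chr4:156200769-156201068 (Isg15) and chr5:120907476-120907775 (Oas1a).
Gbp3: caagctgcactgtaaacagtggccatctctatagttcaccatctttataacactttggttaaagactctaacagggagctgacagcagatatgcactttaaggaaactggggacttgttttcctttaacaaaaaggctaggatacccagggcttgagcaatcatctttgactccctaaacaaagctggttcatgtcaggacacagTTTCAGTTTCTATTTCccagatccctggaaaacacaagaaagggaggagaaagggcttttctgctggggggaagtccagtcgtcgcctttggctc
Trim30a: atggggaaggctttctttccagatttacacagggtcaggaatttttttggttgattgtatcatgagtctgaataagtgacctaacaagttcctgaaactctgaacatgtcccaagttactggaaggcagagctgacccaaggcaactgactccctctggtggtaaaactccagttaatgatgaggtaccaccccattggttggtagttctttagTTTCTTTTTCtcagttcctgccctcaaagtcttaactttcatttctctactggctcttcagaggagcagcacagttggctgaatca
Isg15: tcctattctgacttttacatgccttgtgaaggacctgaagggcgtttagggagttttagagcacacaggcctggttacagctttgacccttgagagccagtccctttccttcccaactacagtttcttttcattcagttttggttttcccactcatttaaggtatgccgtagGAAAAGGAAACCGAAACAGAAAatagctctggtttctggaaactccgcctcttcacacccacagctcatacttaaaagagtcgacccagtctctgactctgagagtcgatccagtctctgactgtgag
Oas1a: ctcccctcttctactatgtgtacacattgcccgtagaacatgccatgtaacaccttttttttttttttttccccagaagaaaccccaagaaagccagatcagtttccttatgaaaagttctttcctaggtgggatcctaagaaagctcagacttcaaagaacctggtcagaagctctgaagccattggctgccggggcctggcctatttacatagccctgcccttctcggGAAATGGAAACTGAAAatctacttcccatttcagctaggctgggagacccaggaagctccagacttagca
In Isg15 the first match began 78 bases before the start site and 3 matches overlapped, so that the run in capitals spans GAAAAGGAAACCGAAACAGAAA. The runs of Gbp3 and Oas1a each merged 2 matches, which began 45 and 39 bases before the start site in Gbp3 and 20 and 14 bases before it in Oas1a. In Trim30a the match began 36 bases before the start site.

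Fitted levels were lower in homozygous than in wild-type hearts in 32 of the 39 members and lower than in heterozygous hearts in 37, while only 4 were lower in heterozygous than in wild-type hearts. Relative to heterozygous hearts, 26 of the 39 members were lower in homozygous hearts at an unadjusted p under 0.05, against 2.32% of all tested genes, and 1 was higher, against 4.83%. Relative to wild-type hearts, 12 were lower (2.16% of all genes) and 2 were higher (22.9%). In heterozygous against wild-type hearts 0 members were lower (0.577%) and 4 were higher (6.29%). No member passed an adjusted p of 0.05 in limma in any of the 3 comparisons, where 0.336% of all genes passed between homozygotes and wild type, 0.0439% between homozygotes and heterozygotes and 0.0146% between heterozygotes and wild type. The lowest adjusted p of a member was 0.0983 for Mx2 in homozygous against wild-type hearts, 0.244 for Rsad2 in homozygous against heterozygous hearts and 0.672 in heterozygous against wild-type hearts. With libraries weighted by their fit (arrayWeights), 37.0% of all genes passed in homozygous against wild-type hearts, 1.88% lower and 35.2% higher, and 13 members passed, 12 lower and 1 higher. In homozygous against heterozygous hearts 0.314% of all genes passed with these weights, 0.19% lower, and 7 members passed, all lower.

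The median log2 change of the members was −0.33 in homozygous against wild-type hearts, −0.80 in homozygous against heterozygous hearts and 0.45 in heterozygous against wild-type hearts. The median over all tested genes was itself above 0, at 0.23, 0.08 and 0.15. Measured from it, the members stood at −0.56, −0.88 and 0.30. These 3 values share libraries and are not independent of each other. Without homozygous replicate 1 the first 2 became −0.43 and −0.62, without homozygous replicate 3 they became −0.88 and −1.13, and without wild-type replicate 2 the first became −0.82. The third became 0.09 without heterozygous replicate 3 and 0.15 without wild-type replicate 2.

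Counted without a model, all 3 homozygous libraries lay below all 3 wild-type libraries in 11 members (2.38% of all genes) and above them in 1 (22.3%). Against the heterozygous libraries they lay below in 22 members (3.85%) and above in 1 (12.0%). The heterozygous libraries lay below the wild-type ones in 0 members (1.03%) and above them in 2 (12.8%). After median-ratio scaling of the libraries, which moves the median over all genes, 14 members lay below the wild-type libraries, against 12.2% of all genes, and 23 below the heterozygous ones, against 9.31%.

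**Figure D2:**
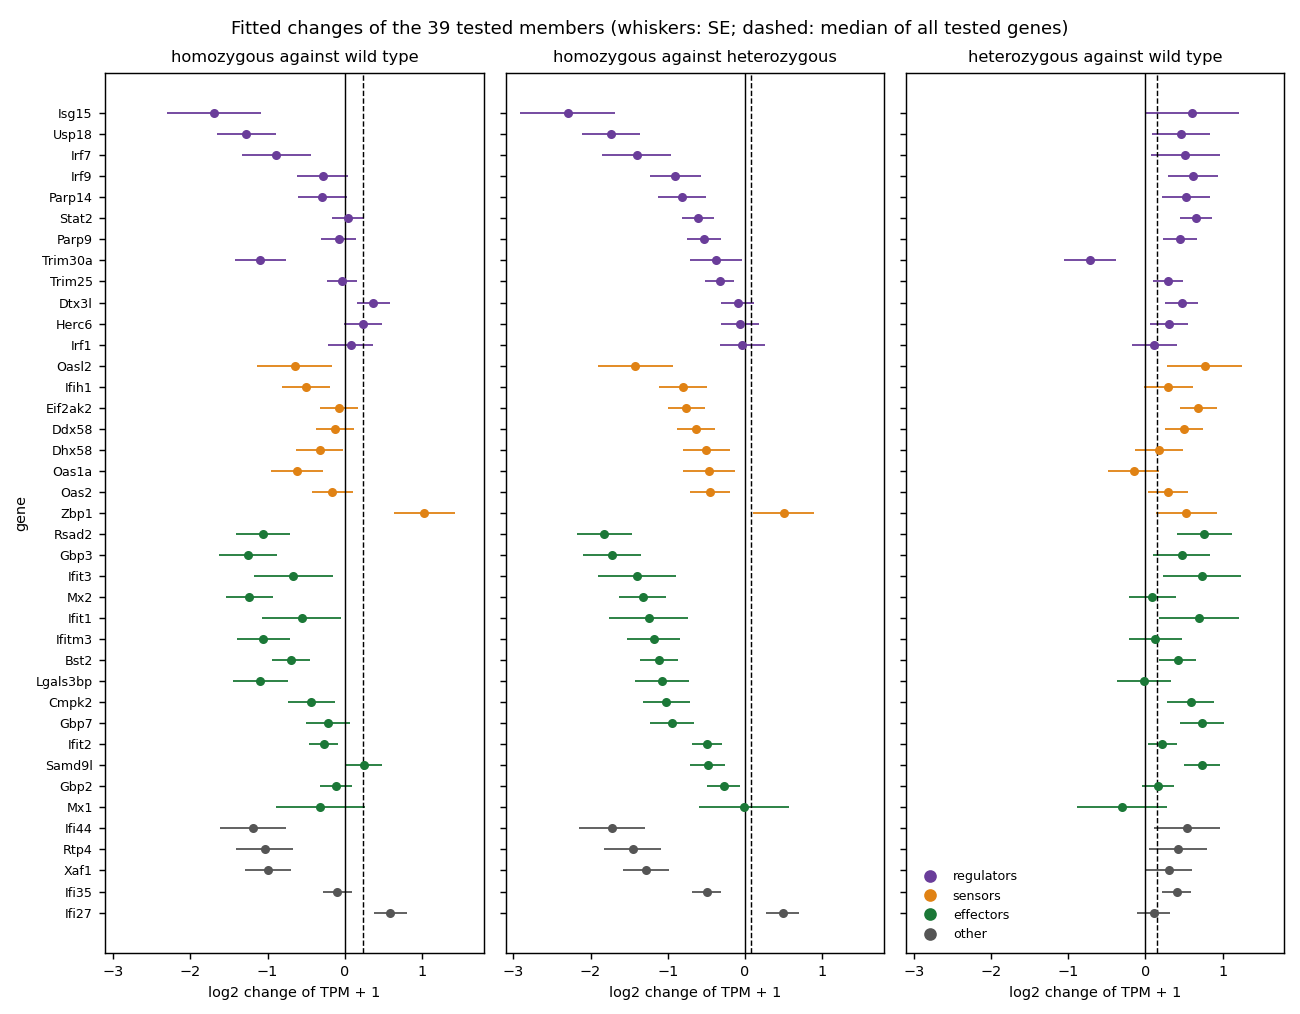
Fitted log2 change of TPM + 1 (horizontal axis) of the 39 tested members in the 3 comparisons, 1 gene a row, coloured by class. Whiskers are standard errors and the dashed line is the median of all tested genes. In homozygous against heterozygous hearts 37 of 39 points lie below the dashed line, with Zbp1 and Ifi27 above it.

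Several libraries carried transcripts of other tissues, and these values stand beside every result below, where their part was not tested. The heart label fitted its markers, since all 10 cardiomyocyte genes were present in each library, with summed levels of 23822 to 36491 TPM and the lowest in homozygous replicate 3. Summed over 14 thymocyte and lymphocyte genes, the level was 585 TPM in homozygous replicate 3 and 0.76 to 2.81 TPM elsewhere. The 10 airway genes summed to 2621 TPM in wild-type replicate 1, 1106 TPM in heterozygous replicate 1 and 1.87 to 51.9 TPM elsewhere, and the 11 liver genes to 3099 TPM in heterozygous replicate 1 and 16.7 to 68.1 TPM elsewhere. Xist, the transcript of the inactive X chromosome, was present in wild-type replicate 1, all heterozygous libraries and homozygous replicate 1, and Y-linked transcripts in the other 4. The 12 macrophage genes summed to 70.0 to 98.1 TPM in the wild-type replicates, to 53.5 to 94.5 TPM in heterozygotes and to 80.7 to 109 TPM in homozygotes. The 8 erythroid genes summed to 11909, 14604 and 2853 TPM in the wild-type replicates, to 15546, 7723 and 5114 TPM in heterozygotes and to 4541, 4306 and 5148 TPM in homozygotes. Homozygous replicates 1 and 2 lay below all libraries of the other genotypes but wild-type replicate 3, and homozygous replicate 3 also stood just above heterozygous replicate 3. The 8 neutrophil genes summed to 188 TPM in heterozygous replicate 1 and to 13.6 to 52.7 TPM elsewhere. Of the 7 plasmacytoid dendritic cell genes Siglech lay at 0 to 0.63 TPM, and Pacsin1, Klk1 and Runx2 at 0 to 1.43 TPM. Tcf4 lay at 25.65 to 53.07 TPM and Cox6a2 at 760 to 1159 TPM. Ccr9 was at 34.4 TPM in homozygous replicate 3 and at 0 to 0.2 TPM elsewhere. These 7 genes lay at unlike levels, so their sum is not given as a level of that cell type. In tissue RNA, fewer cells of a type cannot be told apart from less RNA per cell.

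Without wild-type replicate 1, heterozygous replicate 1 and homozygous replicate 3, both homozygous libraries lay below both wild-type libraries in 18 of 39 members, against 5.67% of all genes, and below both heterozygous libraries in 31, against 8.98%. Among the libraries with Y-linked transcripts alone, the homozygous ones lay below the wild-type ones in 12 members, against 6.64% of all genes. All heterozygous libraries had Xist, so no such count could be made against them.

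The regulators hold the transcription factors of the pathway and the proteins that adjust its strength. Isg15 and its protease Usp18, which also damps the receptor, had the lowest log2 changes of the class in homozygous hearts. Isg15 was at 22.5, 15.6 and 39.5 TPM in wild-type replicates 1 to 3, at 45.6, 22.2 and 50.2 TPM in heterozygous hearts and at 1.77, 7.43 and 18.9 TPM in homozygous hearts. The homozygous values lay below every heterozygous value, and 1 of them, in replicate 3, lay within the wild-type range. Its mean level over 3 replicates was 25.9 ± 12.3 TPM (SD) for wild type, 39.3 ± 15 TPM (SD) for heterozygotes and 9.37 ± 8.73 TPM (SD) for homozygotes. The log2 change was −1.69 (SE 0.61, adjusted p = 0.143) against wild type and −2.30 (SE 0.61, adjusted p = 0.495) against heterozygous hearts. Without homozygous replicate 1 the first became −0.95 (adjusted p = 0.300).

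Usp18 was at 5.05, 3.72 and 5.77 TPM in the wild-type replicates, at 7.88, 3.50 and 11.6 TPM in heterozygotes and at 0.91, 0.88 and 2.79 TPM in homozygotes. The homozygous libraries lay below all 6 others. Its log2 change was −1.28 (SE 0.38, adjusted p = 0.118) against wild type and −1.74 (SE 0.38, adjusted p = 0.357) against heterozygous hearts. Trim30a, by contrast, had its highest values in wild-type hearts, at 4.0, 1.77 and 5.48 TPM, with 2.03, 1.07 and 2.24 TPM in heterozygotes and 0.65, 1.14 and 1.63 TPM in homozygotes. The homozygous values lay below the wild-type ones and overlapped the heterozygous ones, with log2 changes of −1.09 (SE 0.34, adjusted p = 0.120) and −0.38 (SE 0.34, adjusted p = 0.819), the second of which became −0.20 without homozygous replicate 1 and −0.58 without heterozygous replicate 2. In heterozygous against wild-type hearts Trim30a had the lowest log2 change of all members, at −0.71 (SE 0.34, adjusted p = 0.672).

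Irf7, the factor that amplifies interferon transcription, was at 12.3, 4.76 and 8.63 TPM in wild-type hearts. It was at 12.6, 6.60 and 19.9 TPM in heterozygous hearts and at 1.69, 5.20 and 6.02 TPM in homozygous hearts. The homozygous range met that of wild type and lay below that of heterozygous hearts, with log2 changes of −0.89 (SE 0.45, adjusted p = 0.239) and −1.40 (SE 0.45, adjusted p = 0.598). Without homozygous replicate 1 the first became −0.45 (adjusted p = 0.564). Stat2, which carries the transactivation domain of the ISRE-binding complex, showed another order. It was at 5.99, 5.95 and 10.3 TPM in the wild-type replicates, at 11.1, 10.7 and 14.0 TPM in heterozygotes and at 6.49, 7.41 and 8.61 TPM in homozygotes. The heterozygous libraries lay above all 6 others, while the wild-type and homozygous ranges overlapped. The log2 change of Stat2 was 0.65 (SE 0.21, adjusted p = 0.672) in heterozygous against wild-type hearts, −0.61 (SE 0.21, adjusted p = 0.642) in homozygous against heterozygous hearts and 0.05 (SE 0.21, adjusted p = 0.896) in homozygous against wild-type hearts. That last value had the opposite sign in 6 other settings, among them −0.16 after median-ratio scaling and −0.25 after quantile normalization.

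Of the other regulators, Irf9, the DNA-binding part of the ISRE-binding complex, and Trim25, a ubiquitin ligase that acts on RIG-I, also had all homozygous values below the heterozygous ones. Irf1, Parp9, Parp14, Dtx3l and Herc6 overlapped in all 3 comparisons. Parp9 and Dtx3l, whose proteins form a complex, overlap on opposite strands of chromosome 16 and their reads cannot be separated with certainty, since the use of strand is not given in the sources used here. In all, 8 of 12 regulators had a log2 change below 0 against wild type and 12 of 12 had one against heterozygous hearts. At an unadjusted p under 0.05, 3 were lower than in wild-type hearts (2.16% of all genes) and 7 lower than in heterozygous hearts (2.32%).

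The sensors recognise viral or misplaced RNA and DNA. Of the 8 tested, 0 were lower than in wild-type hearts at an unadjusted p under 0.05, a count that cannot be told apart from the 2.16% of all genes. Relative to heterozygous hearts 4 of the 8 were lower at that threshold, against 2.32% of all genes, and 0 were higher, against 4.83%. Oasl2, of the oligoadenylate synthetase family, was at 11.3, 7.98 and 23.0 TPM in the wild-type replicates, at 19.6, 19.9 and 29.5 TPM in heterozygotes and at 3.13, 8.28 and 16.8 TPM in homozygotes. Its homozygous values lay below the heterozygous ones and ran across most of the wild-type range. The log2 change was −0.65 (SE 0.48, adjusted p = 0.394) against wild type and −1.42 (SE 0.48, adjusted p = 0.643) against heterozygous hearts. Without homozygous replicate 1 these became −0.10 (adjusted p = 0.903) and −0.87, and the first was −0.25 without wild-type replicate 3 and −1.16 without homozygous replicate 3. Oas1a was lower, at 2.31, 2.04 and 2.58 TPM in the wild-type replicates, at 2.14, 0.93 and 3.32 TPM in heterozygotes and at 0.45, 1.46 and 1.78 TPM in homozygotes. All homozygous values lay below all wild-type values, with a log2 change of −0.62 (SE 0.34, adjusted p = 0.260) that became −0.34 without homozygous replicate 1. In the GENCODE M21 transcripts 68.8% of the 31-base words of Oas1a also occur in other genes, mainly Oas1g, so its values depend on how reads were divided between them.

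Zbp1, which binds nucleic acid in the left-handed Z form, went the other way. It was at 0.40, 0.27 and 0.29 TPM in the wild-type replicates, at 1.25, 0.30 and 1.36 TPM in heterozygotes and at 0.78, 1.28 and 3.84 TPM in homozygotes. Every homozygous value exceeded every wild-type value, and the highest stood in homozygous replicate 3, the library with 585 TPM of thymocyte and lymphocyte genes. The other homozygous libraries held 1.56 and 2.14 TPM of those genes, and their part in the level was not tested. The log2 change of Zbp1 was 1.03 (SE 0.39, adjusted p = 0.154), and 0.61 (adjusted p = 0.158) without homozygous replicate 3. Its mean over all libraries, 1.09 TPM, passed the filter on low values through homozygous hearts alone, so a higher value there was favoured by the filter. The RNA helicases Ddx58 (RIG-I), Ifih1 (MDA5) and Dhx58 (LGP2) and the kinase Eif2ak2 (PKR) overlapped between homozygous and wild-type hearts. Ddx58 and Eif2ak2 had all homozygous values below the heterozygous ones, with log2 changes of −0.63 (SE 0.24) and −0.76 (SE 0.24). Eif2ak2 was also among the 4 members higher in heterozygous than in wild-type hearts at an unadjusted p under 0.05, with a log2 change of 0.69 (SE 0.24, adjusted p = 0.672).

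The effectors act on the virus or on the infected cell. Of the 14, 6 were lower than in wild-type hearts (2.16% of all genes) and 11 lower than in heterozygous hearts (2.32%) at an unadjusted p under 0.05. In both comparisons 0 were higher, against 22.9% and 4.83% of all genes. Mx2, a dynamin-like GTPase gene at chr16:97535308-97560900 that GENCODE M21 lists as a polymorphic pseudogene, was at 2.53, 3.14 and 4.77 TPM in the wild-type replicates, at 2.44, 3.73 and 5.27 TPM in heterozygotes and at 0.33, 1.14 and 1.28 TPM in homozygotes. Wild-type and heterozygous libraries covered nearly the same range, and all homozygous libraries lay below it. The log2 change was −1.23 (SE 0.30, adjusted p = 0.0983) against wild type and −1.32 (SE 0.30, adjusted p = 0.416) against heterozygous hearts. After median-ratio scaling the first became −1.37 with an adjusted p of 0.0485, the only member to pass there, and over the 21 settings its adjusted p ran from 0.0118 with arrayWeights to 0.324 without wild-type replicate 2.

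Gbp3 was at 5.73, 5.47 and 12.4 TPM in the wild-type replicates, at 13.5, 6.73 and 12.8 TPM in heterozygotes and at 1.15, 3.40 and 3.52 TPM in homozygotes. No homozygous value reached any other, and the log2 change was −1.26 (SE 0.37, adjusted p = 0.118) against wild type and −1.73 (SE 0.37, adjusted p = 0.357) against heterozygous hearts. Its neighbour Gbp7, 9877 bases away, overlapped between homozygous and wild-type hearts, with a log2 change of −0.21 (SE 0.29), and was higher in all heterozygous than in all wild-type libraries, with a log2 change of 0.73 (SE 0.29, adjusted p = 0.672). Lgals3bp, a secreted glycoprotein, was at 19.3, 11.2 and 31.3 TPM in the wild-type replicates, at 18.1, 15.3 and 23.8 TPM in heterozygotes and at 7.29, 6.02 and 13.2 TPM in homozygotes. Homozygous replicate 3 exceeded the lowest wild-type library, and all homozygous values lay below the heterozygous ones. The log2 changes were −1.09 (SE 0.35, adjusted p = 0.126) and −1.08 (SE 0.35, adjusted p = 0.614).

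Ifit1, which binds viral RNA with incompletely methylated caps, varied widely within genotypes. It was at 1.37, 1.02 and 2.90 TPM in the wild-type replicates, at 2.63, 1.27 and 8.52 TPM in heterozygotes and at 0.12, 0.82 and 1.86 TPM in homozygotes, and the groups overlapped in every comparison. The log2 change was −0.56 (SE 0.52, adjusted p = 0.487) against wild type and −1.25 (SE 0.52, adjusted p = 0.693) against heterozygous hearts. With a library left out the first ran from −0.89 without homozygous replicate 3 to −0.22 without homozygous replicate 1, and was −0.28 without wild-type replicate 3, while the second became −0.67 without heterozygous replicate 3. Ifit3 likewise was lowest in homozygous replicate 1 and highest in heterozygous replicate 3, but 61.8% of its words occur in other transcripts, mainly those of Ifit3b.

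The effectors Rsad2, Bst2 and Ifitm3, and the other gene Ifi27 are named after their values were seen. Rsad2 encodes viperin, which makes a chain-terminating nucleotide, and was at 2.55, 2.49 and 3.14 TPM in the wild-type replicates, at 7.42, 2.30 and 8.05 TPM in heterozygotes and at 0.42, 1.01 and 0.99 TPM in homozygotes. The homozygous libraries lay below all others, with log2 changes of −1.06 (SE 0.35, adjusted p = 0.132) and −1.82 (SE 0.35, adjusted p = 0.244). Without heterozygous replicate 2 the second became −2.29 with an adjusted p of 0.0182, the lowest of 21 settings, and without heterozygous replicate 3 its adjusted p was 0.840, the highest. Cmpk2, a nucleotide kinase gene 12752 bases from Rsad2 that is transcribed away from it, also lay below the heterozygous range in all homozygous libraries and overlapped with wild type.

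Ifitm3 and Bst2 were the most abundant members by mean TPM. Ifitm3, which blocks fusion of viruses with cell membranes, was at 116, 80.9 and 133 TPM in the wild-type replicates, at 127, 85.8 and 151 TPM in heterozygotes and at 28.9, 59.8 and 78.4 TPM in homozygotes. Its log2 change was −1.05 (SE 0.34, adjusted p = 0.126) against wild type and −0.65 without homozygous replicate 1, and 20.5% of its words occur in other transcripts, mainly those of Ifitm1. Bst2, or tetherin, which holds budding virus at the cell surface, was at 69.6, 49.9 and 72.7 TPM in the wild-type replicates, at 92.3, 71.5 and 92.4 TPM in heterozygotes and at 25.2, 47.2 and 48.5 TPM in homozygotes. In both genes the homozygous libraries lay below all others, and homozygous replicate 1 was the lowest. The log2 change of Bst2 was −0.70 (SE 0.24, adjusted p = 0.138) against wild type and −1.11 (SE 0.24, adjusted p = 0.357) against heterozygous hearts. Without homozygous replicate 1 the first became −0.40 (adjusted p = 0.279).

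The 5 other genes are interferon-induced with less settled roles. Ifi44 was at 3.72, 3.24 and 5.20 TPM in the wild-type replicates, at 6.42, 3.63 and 9.97 TPM in heterozygotes and at 0.22, 1.09 and 3.14 TPM in homozygotes. Xaf1, an interferon-induced gene linked to cell death, was at 13.1, 11.3 and 15.7 TPM in the wild-type replicates, at 18.3, 11.4 and 21.5 TPM in heterozygotes and at 3.46, 7.90 and 8.29 TPM in homozygotes. Rtp4, whose protein helps receptors reach the cell surface, was at 10.2, 8.63 and 20.2 TPM in the wild-type replicates, at 13.9, 13.4 and 24.6 TPM in heterozygotes and at 2.85, 7.15 and 7.46 TPM in homozygotes. In all 3 genes the homozygous libraries lay below the 6 others, narrowly for Ifi44 in replicate 3. Rtp4 overlaps Masp1 in the annotation. The log2 changes against wild type were −1.19 (SE 0.43, adjusted p = 0.143) for Ifi44, −0.99 (SE 0.30, adjusted p = 0.118) for Xaf1 and −1.04 (SE 0.37, adjusted p = 0.143) for Rtp4. Without homozygous replicate 1 they became −0.76, −0.65 and −0.67.

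Ifi27, whose protein sits at membranes including those of mitochondria, was the exception among these genes. It was at 18.1, 14.3 and 25.4 TPM in the wild-type replicates, at 18.7, 20.0 and 22.1 TPM in heterozygotes and at 25.4, 24.7 and 37.6 TPM in homozygotes. The homozygous libraries lay above the heterozygous ones and met the highest wild-type library. The log2 change was 0.59 (SE 0.21, adjusted p = 0.143) against wild type, and without wild-type replicate 3 it was 0.80 (adjusted p = 0.0332). Over 22 settings its adjusted p ran from 0.0162 with arrayWeights to 0.454 after quantile normalization.

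**Figure D3:**
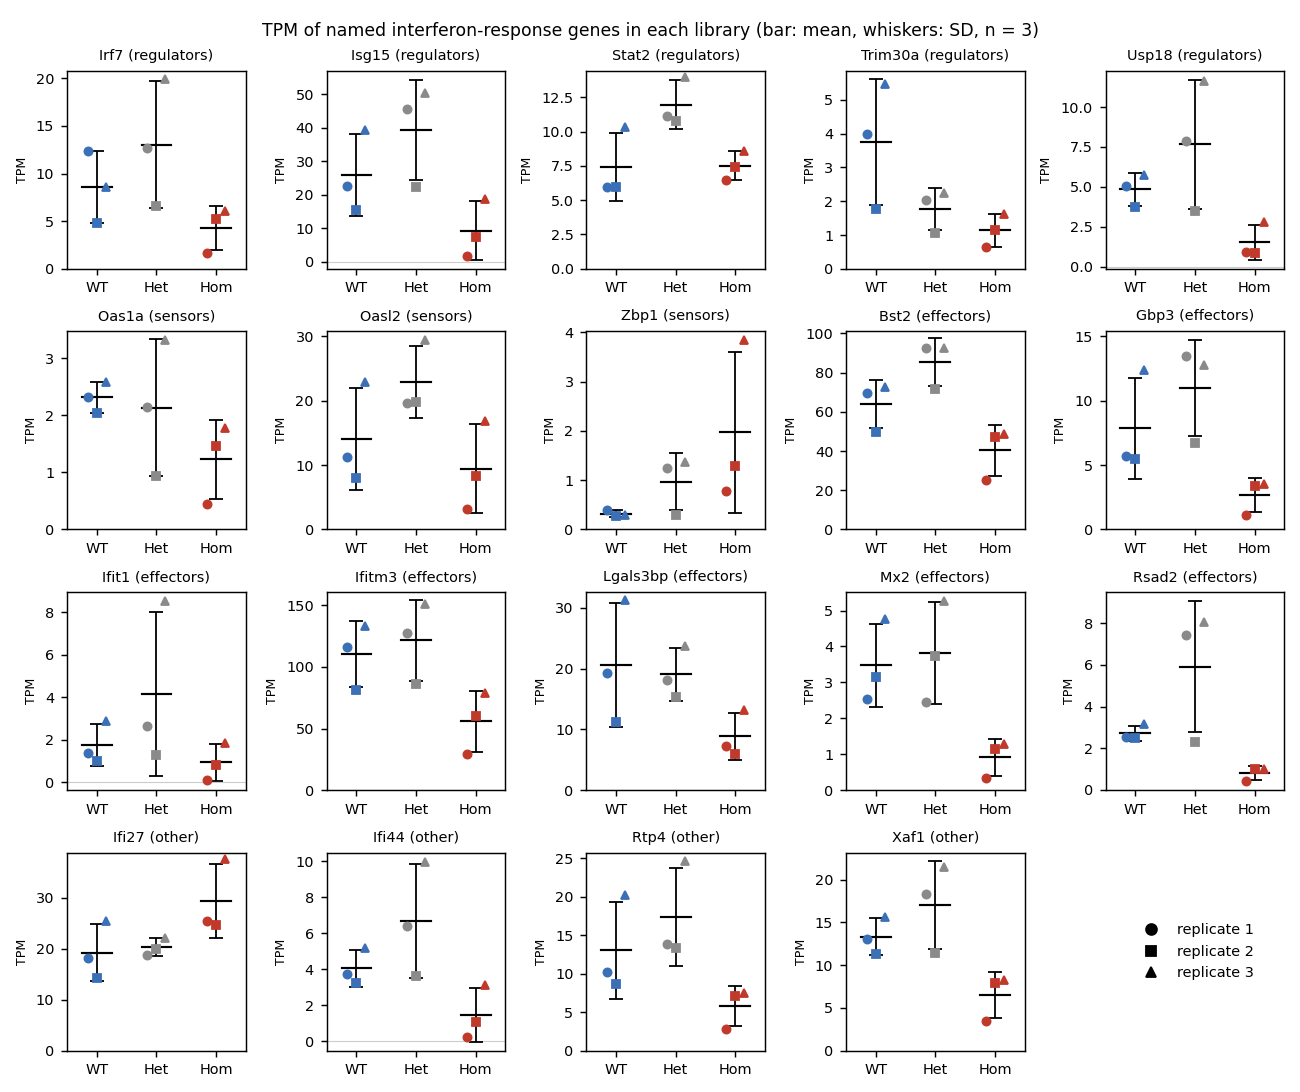
TPM (vertical axis, which includes 0) of the 19 named members in each library, grouped as wild type (WT), heterozygous (Het) and homozygous (Hom), with the mean as a bar and the SD as whiskers (n = 3). Homozygous points lie below all others in Usp18, Mx2, Gbp3, Rsad2, Bst2, Ifitm3, Ifi44, Xaf1 and Rtp4, and Zbp1 and Ifi27 have their highest points there.

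Set side by side, the effectors and other genes stood furthest below all genes in homozygous hearts and the regulators and sensors nearer to them. Relative to the median of all genes, the class median against wild type was −0.41 for regulators, −0.47 for sensors, −0.84 for effectors and −1.22 for other genes. Against heterozygous hearts it was −0.64, −0.64, −1.17 and −1.36 in the same order. All 3 homozygous libraries lay below all wild-type libraries in 2 of 12 regulators, 1 of 8 sensors, 5 of 14 effectors and 3 of 5 other genes, against 2.38% of all genes. Without wild-type replicate 1, heterozygous replicate 1 and homozygous replicate 3, the medians against wild type were −0.68, −0.59, −1.17 and −1.41, and without homozygous replicate 1 they were −0.19, −0.32, −0.52 and −0.85. Effectors and other genes had the lower medians under all 22 alternatives in both comparisons with homozygous hearts, but the differences between classes were not tested. Several alternatives could not move these medians and are no check of the order. They were the fit without a trend, only the 2 compared groups, the replicate block and leaving out a library of the third genotype. With the oligoadenylate synthetase genes counted among the effectors, the medians against wild type were −0.36 for the remaining 5 sensors and −0.85 for 17 effectors. In heterozygous against wild-type hearts the classes stood closer together, at 0.32, 0.25, 0.30 and 0.26.

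Members with the ISRE letters in the listed promoter had a median of −0.85 relative to all genes in homozygous against wild-type hearts (15 tested) and those without had −0.51 (14 tested). In homozygous against heterozygous hearts the medians were −1.02 and −0.78. The homozygous libraries lay below all wild-type libraries in 6 of the 15 and 2 of the 14, against 2.38% of all genes. They lay below all heterozygous libraries, however, in 9 of the 15 and 10 of the 14, against 3.85% of all genes. Both groups spanned wide ranges against wild type, from −1.93 to −0.18 with the letters and from −1.42 to 0.14 without, and the difference was not tested.

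The median spread within each genotype was wider over the members than over all genes. The 2 sets were not matched for expression level, and the difference was not tested. The median SD of log2(TPM + 1) within wild-type, heterozygous and homozygous hearts was 0.37, 0.37 and 0.47 over the 39 members and 0.21, 0.14 and 0.21 over all tested genes. Libraries tended to be high or low for many members at once. Wild-type replicate 3 had the highest value of its genotype in 34 members, against 70.6% of all genes, and wild-type replicate 2 the lowest in 29, against 35.5%. Heterozygous replicate 3 was highest in 36 members (52.5% of all genes) and replicate 2 lowest in 33 (53.7%). Homozygous replicate 1 was lowest in 31 members (22.0%) and replicate 3 highest in 30 (24.1%).

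Averaged over the members and taken from the median of all genes, the centred log2 level was 0.16, −0.09 and 0.39 in wild-type replicates 1 to 3, 0.37, 0.06 and 0.70 in heterozygous hearts and −1.02, −0.54 and −0.0037 in homozygous hearts. Homozygous replicates 1 and 2 lay below all others, and replicate 3 lay between wild-type replicates 2 and 1. Homozygous replicates 1 and 3 stood further apart than any pair within the other genotypes. The ratio of the highest to the lowest value was larger within homozygous than within wild-type hearts in 28 of the 40 members and smaller in 12. It was 10.7 against 2.54 in Isg15, and 1.72 against 2.86 in Irf9. In each class replicate 1 was the lowest and replicate 3 the highest homozygous library. The summed level of all 40 members ran from 197 TPM in homozygous replicate 1 to 721 TPM in heterozygous replicate 3.

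**Figure D4:**
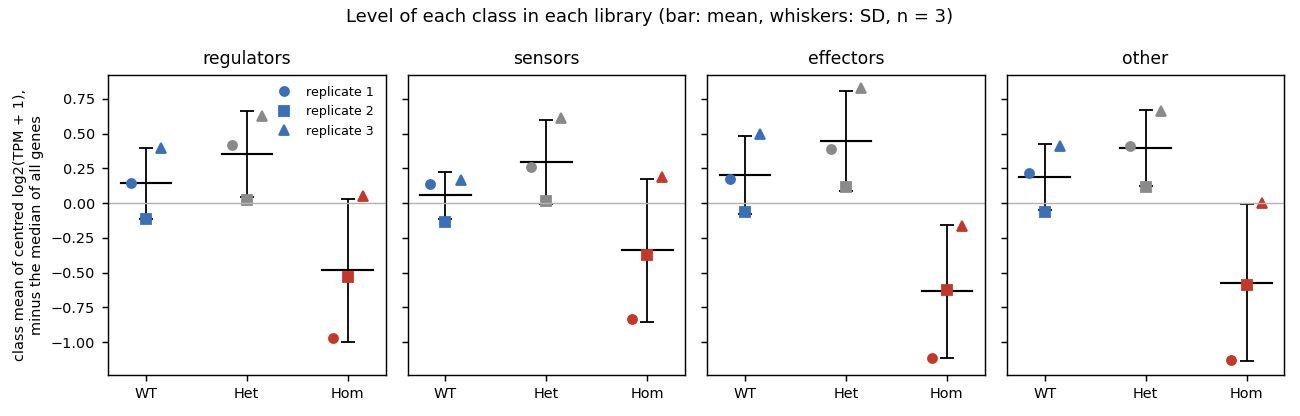
Mean over the tested genes of each class of log2(TPM + 1) centred on the 9 libraries, minus the same median over all genes (vertical axis), in each library of wild-type (WT), heterozygous (Het) and homozygous (Hom) hearts. Bars are means and whiskers SD (n = 3). The homozygous points spread from −0.97 to 0.05 in regulators and from −1.12 to −0.16 in effectors.

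**Figure D5:**
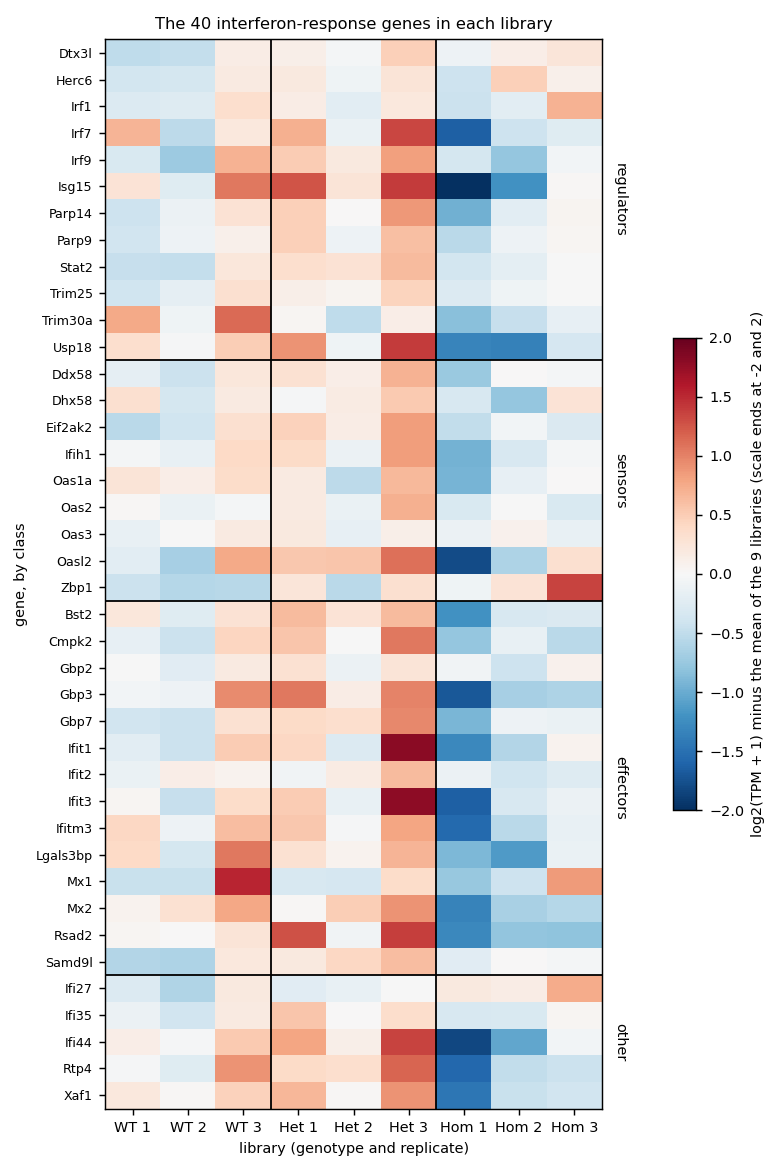
All 40 members (rows, by class) in the 9 libraries (columns): colour gives log2(TPM + 1) minus the mean of the 9 libraries, blue below and red above. Homozygous replicate 1 is blue and heterozygous replicate 3 red in every row but that of Ifi27.

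As a group, the other listed genes of the pathway, feedback and clearance genes among them, had a median near that of all genes. None of the 15 interferon ligand genes looked for, Ifnb1 among them, was a row of the table, so they were not analysed here. Of 38 receptor, kinase, transcription factor, induction, feedback and nucleic-acid clearance genes, 36 were tested and 0 passed limma's adjusted p of 0.05 in any comparison. In homozygous against wild-type hearts 0 were lower (2.16% of all genes) and 10 higher (22.9%) at an unadjusted p under 0.05, and their median relative to all genes was 0.03, against −0.56 for the members. In homozygous against heterozygous hearts 0 were lower (2.32%) and 4 higher (4.83%), with a median of 0.04. All homozygous values lay above all wild-type ones in 14 of the 36, against 22.3% of all genes, and below them in 0, against 2.38%. None of these counts was tested against its background.

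The receptor chain Ifnar1 was at 13.9, 17.6 and 20.6 TPM in the wild-type replicates, at 19.6, 19.6 and 20.5 TPM in heterozygotes and at 23.5, 27.9 and 21.6 TPM in homozygotes. All homozygous values lay above all others, with a log2 change of 0.47 (SE 0.15, adjusted p = 0.127) against wild type. The other chain, Ifnar2, lay between 18.0 and 25.4 TPM in all libraries, with a log2 change of 0.06 (SE 0.16, adjusted p = 0.831).

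The lowest adjusted p of the list against wild type was that of Irf3, the factor that starts interferon transcription, which is named after its values were seen. It was at 33.0, 32.3 and 36.4 TPM in the wild-type replicates, at 39.96, 42.9 and 51.0 TPM in heterozygotes and at 53.5, 50.1 and 65.9 TPM in homozygotes. Heterozygous and homozygous values all lay above the wild-type ones and overlapped each other. The log2 change in homozygous hearts was 0.71 (SE 0.14, adjusted p = 0.0676) against wild type and 0.33 (SE 0.14, adjusted p = 0.691) against heterozygotes. Irf3 overlaps Bcl2l12 on the opposite strand in the annotation, so their reads cannot be separated with certainty. Its kinases Tbk1 and Ikbke and the interferon lambda receptor gene Ifnlr1 are likewise named after their values were seen. All homozygous values lay above all wild-type ones in these 3 genes, as in 22.3% of all genes. The log2 changes were 0.49 (SE 0.13, adjusted p = 0.107), 0.95 (SE 0.30, adjusted p = 0.124) and 0.73 (SE 0.22, adjusted p = 0.120), where the median of all genes was 0.23. Ikbke was at 4.45, 4.32 and 11.2 TPM in the homozygous replicates. Replicate 3 was the library with 585 TPM of thymocyte and lymphocyte genes, whose part was not tested. Ifnlr1 was low, at 0.86, 0.75 and 0.65 TPM in the wild-type replicates and at 1.69, 1.97 and 2.08 TPM in homozygotes.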

How the data were processed

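Poly-A RNA of E18.5 hearts had been sequenced, with 3 libraries for each genotype. Reads were trimmed by the authors (Trim Galore v0.6.10), aligned to mm10 (STAR v2.7.4a) and counted per gene (RSEM v1.2.28). Neither the annotation release nor strand use is given in the sources used here. The deposited TPM values, scaled by the authors to gene length and to a common total, summed to 999100 to 999245 per library, so depth and counting error are unknown and the 3 libraries of a group are the only measure of precision. Of 24597 rows, 26 whose symbols had become dates were left out.

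Values were analysed as log2(TPM + 1), which understates the change of low genes, keeping genes whose mean reached 1 TPM. The 3 genotypes entered 1 linear model over all 9 libraries (limma v3.58.1, eBayes with a trend, R v4.3.3), without covariates. Tests were two-sided, with Benjamini-Hochberg adjustment over all 13682 genes of a comparison. Standard errors of a log2 change had a median of 0.18 over all genes. The script was tested on simulated data. No count test was run and the study's DESeq2 test was not repeated.

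The members, the gene lists and the tests were chosen with earlier results of these data known. Named members were Stat2, Irf7, Isg15 and Ifit1, any member called, and the 3 per class with the largest absolute log2 change in homozygous against wild-type hearts, and of the pathway genes Ifnar1, Ifnar2 and Ifnb1. Positions and shared words came from GENCODE M21 on mm10 (GRCm38). Alternatives were pseudocounts of 0.1 and 5, other filters, scalings, weights and covariates, a replicate block and libraries left out. arrayWeights was run gene by gene, since its default did not converge. 1 pathway gene was left out of the lists and is not reported here.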

Additional observations from a re-analysis of the deposited data

How the results depend on the processing

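The direction of the members' median relative to all genes was kept in each of the 3 comparisons under all 22 alternatives, although it ran from −0.35 (pseudocount 5) to −0.89 (without the 3 libraries with other-organ markers) in homozygous against wild-type hearts. Some alternatives leave this median unchanged by design and are no check of its direction. They were the fit without a trend, only the 2 compared groups, the replicate block and leaving out a library of the third genotype. Counts of called genes were less stable. From 46 genes in homozygous against wild-type hearts, they became 22 with no filter on low values, 229 after median-ratio scaling, 71 after quantile normalization, 77 after rescaling without mitochondrial and haemoglobin genes, 5068 with arrayWeights, 11 with only the 2 compared groups, 11 without the 3 libraries with other-organ markers, and 13 (without wild-type replicate 2) to 2170 (without wild-type replicate 3). From 6 in homozygous against heterozygous hearts, they became 2 with pseudocount 5, 2 with no filter, 15 after median-ratio scaling, 11 after quantile normalization, 10 after rescaling, 43 with arrayWeights, 0 with only the 2 groups, 0 with the Xist covariate, and 1 to 6 with a library left out. From 2 in heterozygous against wild-type hearts, they became 1 with pseudocount 0.1, 1 where the mean had to reach 5 TPM, 5 after median-ratio scaling, 4 after quantile normalization, 4 with arrayWeights, 0 with only the 2 groups, 1 with the Xist covariate, 5 without the 3 libraries, and 1 to 6 with a library left out. The causes were not tested.

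Called members went from 0 to 1 after median-ratio scaling (Mx2, against 1.67% of all genes), 13 with arrayWeights (37.0%) and 0 to 1 with a library left out (Ifi27 without wild-type replicate 3, against 15.9%) in homozygous against wild-type hearts. In homozygous against heterozygous hearts they went from 0 to 7 with arrayWeights (0.314%) and 0 to 1 with a library left out (Rsad2 without heterozygous replicate 2, against 0.0292%), and in heterozygous against wild-type hearts they stayed at 0. Counts without overlap were an alternative chosen after seeing the data. In homozygous against wild-type hearts, 11 members lower became 18 without the 3 libraries (5.67% of all genes) and 11 to 15 with a library left out (2.38% to 4.13%), and 1 higher became 1 to 5, the 5 without wild-type replicate 3 against 46.7% of all genes. In heterozygous against wild-type hearts, 0 lower became 0 to 1, and 2 higher became 5 without the 3 libraries (22.3%) and 2 to 21 with a library left out, the 21 without heterozygous replicate 2 (26.3%) and 20 without wild-type replicate 3 (48.0%).

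With the replicate number as a block, 17, 1 and 1 genes were called in the 3 comparisons and 0 members in each. Deviations of same-numbered libraries correlated at −0.03 to 0.06 in homozygous against wild-type, −0.03 to 0.02 in homozygous against heterozygous and 0.06 to 0.36 in heterozygous against wild-type hearts. Not every library correlated best with its own number. Among wild-type libraries, heterozygous replicates 1 and 3 correlated best with their own number (0.36 and 0.30) and heterozygous replicate 2 with replicate 3 (0.12). The labels give no litters, so whether the numbers pair the samples is not known.

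Single members changed sign where their values lay near 0. In homozygous against wild-type hearts Stat2 became −0.16 after median-ratio scaling, −0.25 after quantile normalization, −0.16 without the 3 libraries and −0.071 to 0.28 with a library left out. In heterozygous against wild-type hearts Ifi27 became −0.049 after median-ratio scaling, −0.056 after quantile normalization and −0.080 to 0.32 with a library left out. Ifitm3 became −0.032 after median-ratio scaling and −0.075 to 0.36 with a library left out, and Mx2 −0.032 after median-ratio scaling, −0.081 after quantile normalization and −0.12 to 0.31 with a library left out. Lgals3bp became 0.35 with arrayWeights, 0.078 with the Xist covariate, 0.019 without the 3 libraries and −0.37 to 0.33 with a library left out. Oas1a became 0.18 with the Xist covariate and −0.42 to 0.16 with a library left out.

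TPM keeps no depth, so no counting error can be given for the members that lie near 1 TPM, such as Zbp1, Mx1 and Oas2.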
